A study of Homo sapiens with 14 samples.

Results

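Endoglin (ENG) and 9 other genes of the TGF-β pathway were followed through 14 RNA-Seq libraries of MDA-MB-231, an established human triple-negative breast cancer cell line. The 10 genes were taken by symbol from a table of 19410 genes, and they are ENG, TGFBI, TGFB1, TGFB2, TGFBR1, TGFBR2, TGFBR3, ACVRL1, SMAD3 and LTBP1. They were selected on measured values, the large fall of ENG and the opposite change of TGFBI in edited lines. Their values against parental cells in MLL1-KO lines, and those of ENG and TGFBI in every line, are therefore given as a description without a test. Where ENG and TGFBI are compared between edited lines, their p-values are also a description, and nothing is read from them. The wording by which the genes were chosen placed the loss of ENG in the MLL1-KO lines, and the data do not show it there. ENG was nearly absent from the SAP30-KO and SIN3 double KO lines, was 1.25-fold lower in MLL1-KO1, and was 1.73-fold higher in MLL1-KO2.

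The libraries came from 7 conditions with 2 libraries each. The untreated parental cells were compared with SAP30-KO1 and SAP30-KO2, which lack a subunit of the SIN3 histone deacetylase complex, with SIN3A+SIN3B-DKO1 and SIN3A+SIN3B-DKO2, which were edited in both scaffold proteins of that complex, and with MLL1-KO1 and MLL1-KO2, edited in the histone H3 lysine methyltransferase MLL1. According to the study's methods the lines were made with CRISPR/Cas9, and each was a mixture of several knockout clones selected with puromycin. Nothing in the labels says that the libraries of a condition came from separate cultures, so p-values measure the spread between these libraries, which may be technical. The question was how the pathway genes stand in each edited line, whether the SAP30-KO and SIN3 double KO lines differ, and whether lines of the same genotype agree.

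TGF-β ligands are secreted in a latent form that is bound to the matrix by latent TGF-β binding proteins such as LTBP1. Once released they join a type II receptor (TGFBR2) with a type I receptor (TGFBR1, or ACVRL1, also known as ALK1), which phosphorylates SMAD proteins that enter the nucleus and act on target genes. Endoglin and betaglycan (TGFBR3) are coreceptors that present ligand without signalling through a kinase of their own. Endoglin is best known from endothelial cells, where it works with ACVRL1 as a receptor for BMP9 and BMP10, and TGFBI is a secreted matrix protein named for its induction by TGF-β.

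All values are TPM, a share of the library's transcripts that is scaled for gene length and adds up to 1000000 in each library. They correspond to between 18415036 and 23162682 reads per library. SAP30 RNA was 80.8 ± 2.76 TPM (SD, n = 2) in parental cells and 3.43 ± 0.416 and 3.86 ± 1.56 in SAP30-KO1 and SAP30-KO2. MLL, the table's symbol for the MLL1 gene, stood at 52.8 ± 5.46 TPM in parental cells, 16.6 ± 1.14 in MLL1-KO1 and 26.7 ± 1.35 in MLL1-KO2. It was also lower in SAP30-KO1 and SAP30-KO2, at 27.3 ± 6.11 and 33.4 ± 2.9 TPM. SIN3B RNA was 76.2 ± 1.63 TPM in parental cells, 49.6 ± 0.887 in the libraries labelled SIN3A+SIN3B-DKO1 and 46.6 ± 4.36 in those labelled SIN3A+SIN3B-DKO2, while SIN3A RNA was not lower in them (44.2 ± 1.64 TPM in parental cells against 61.6 ± 1.37 and 55.1 ± 0.0536). An edited gene can still be transcribed, so RNA does not check the SIN3A label. The 5 markers of this cell line (VIM, CD44, KRT8, KRT18, EGFR) were above 1 TPM in every condition. Of 3 markers listed as low in it, ESR1 and PGR were at most 0.191 and 0.139 TPM. The third, ERBB2, was not near 0 and ranged from 21.9 to 42.8 TPM.

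The promoters of 9 of the 10 genes were found in a RefSeq table on GRCh38.p14. Those of ENG, TGFBI and TGFB2 are shown because these genes differed most from parental cells. Each is the 250 bases before the annotated start, read 5′ to 3′ on the gene's strand, with every CG dinucleotide in capitals. They lie at chr9:127854659-127854908 on the minus strand for ENG, at chr5:136028738-136028987 on the plus strand for TGFBI and at chr1:218345086-218345335 on the plus strand for TGFB2.
ENG: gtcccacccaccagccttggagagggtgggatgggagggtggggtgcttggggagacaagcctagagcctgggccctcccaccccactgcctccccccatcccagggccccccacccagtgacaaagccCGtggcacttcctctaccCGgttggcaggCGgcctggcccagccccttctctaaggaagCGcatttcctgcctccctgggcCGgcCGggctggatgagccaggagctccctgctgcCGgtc
TGFBI: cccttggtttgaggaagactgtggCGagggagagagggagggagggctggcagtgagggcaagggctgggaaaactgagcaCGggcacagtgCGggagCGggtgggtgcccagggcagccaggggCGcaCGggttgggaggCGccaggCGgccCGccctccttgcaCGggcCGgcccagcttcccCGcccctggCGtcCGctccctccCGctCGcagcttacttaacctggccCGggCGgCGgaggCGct
TGFB2: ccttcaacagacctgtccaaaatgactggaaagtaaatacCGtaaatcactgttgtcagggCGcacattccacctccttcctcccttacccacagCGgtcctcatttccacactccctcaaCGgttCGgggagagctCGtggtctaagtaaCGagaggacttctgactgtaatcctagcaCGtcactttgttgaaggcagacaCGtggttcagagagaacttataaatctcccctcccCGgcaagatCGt

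The ENG window held 7 CG dinucleotides, the TGFB2 window 11 and the TGFBI window 20, against a median of 11 over 27305 promoters. A set of 3 short motifs was searched on both strands of the same windows. The GC box, GGGCGG, was found in 42.3% of all promoters, the SMAD-binding letters CAGAC in 37.8% and the TATA box TATAAA in 11.1%. The TGFBI window held 3 GC boxes, at 98 to 93, 66 to 61 and 16 to 11 bases before the start, and neither of the other motifs. The TGFB2 window held CAGAC at 243 to 239 and at 53 to 49 bases before the start, and TATAAA at 29 to 24. None of the 3 motifs was found in the ENG window, which says only that these letters are not in it.

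ENG lies on chromosome 9 (GRCh37, 130577292 to 130616937, minus strand). It stood at 65.8 and 65.7 TPM in the parental libraries, which is a moderate level and was read from 1470 to 1511 reads. The SAP30-KO1 libraries had 1.57 and 1.29 TPM and the SAP30-KO2 libraries 2.40 and 2.67 TPM, which is 46.0-fold and 25.9-fold below parental cells. The SIN3A+SIN3B-DKO1 libraries had 5.41 and 4.79 TPM (12.9-fold below). Lowest of all were the SIN3A+SIN3B-DKO2 libraries, at 0.409 and 0.683 TPM from 11 and 18 reads, a level 120.3-fold below parental cells that rests on few reads. The 8 libraries of these lines were all far below the parental ones. The MLL1-KO1 libraries had 53.4 and 51.4 TPM and the MLL1-KO2 libraries 115.1 and 112.6 TPM, so the MLL1-KO lines stood on opposite sides of parental cells. From the highest level to the lowest, the order was MLL1-KO2, parental, MLL1-KO1, SIN3A+SIN3B-DKO1, SAP30-KO2, SAP30-KO1 and SIN3A+SIN3B-DKO2, and the libraries of neighbouring conditions did not overlap anywhere in it.

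TGFBI lies on chromosome 5 (GRCh37, 135364677 to 135399507, plus strand). Its parental libraries had 32.3 and 35.5 TPM. The MLL1-KO1 libraries had 142.1 and 137.1 TPM and the MLL1-KO2 libraries 170.1 and 173.1 TPM, which is 4.12-fold and 5.07-fold above parental cells. The SAP30-KO1 (16.6 and 17.0 TPM) and SAP30-KO2 (15.9 and 16.9 TPM) libraries overlapped each other and were 2.02-fold and 2.06-fold below parental cells. The SIN3A+SIN3B-DKO2 libraries had 17.7 and 19.8 TPM, whereas those of SIN3A+SIN3B-DKO1 had 5.83 and 5.72 TPM, which is 5.86-fold below. TGFBI was therefore above parental cells in all 4 MLL1-KO libraries and below in the 8 libraries of the other lines, and ENG and TGFBI stood on opposite sides of parental cells in MLL1-KO1 alone among the 6 lines.

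**Figure D1:**
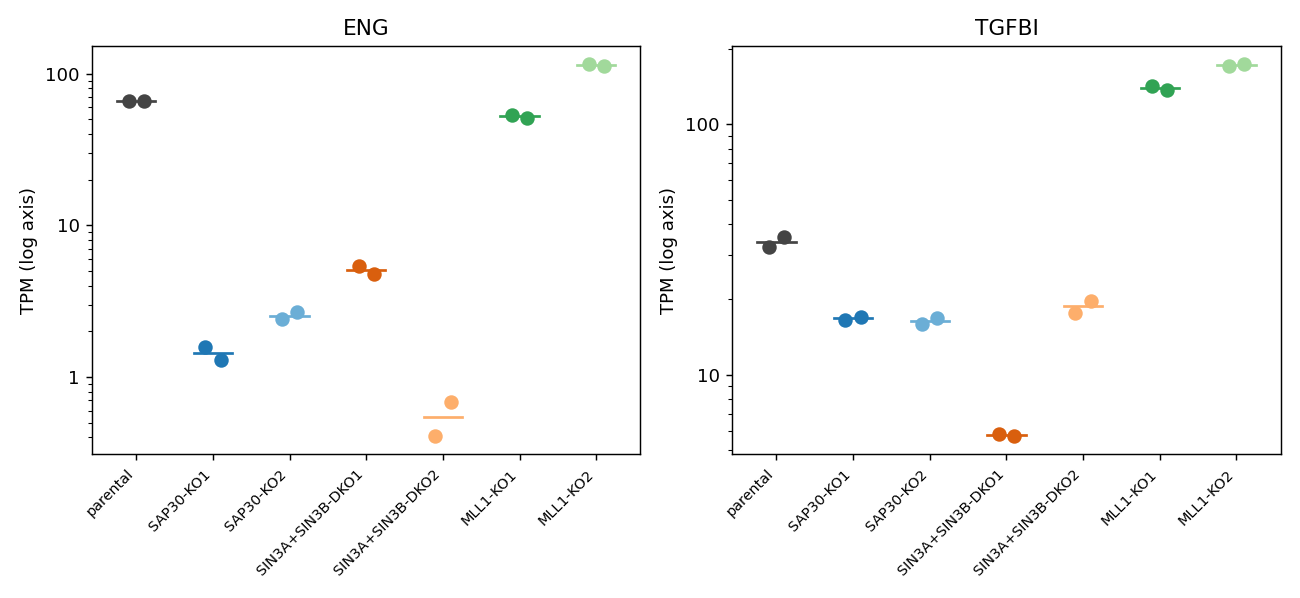
TPM of ENG and TGFBI in each library (points, logarithmic axis) with the mean of the 2 libraries of each condition (lines). ENG lies between 0.409 and 5.41 TPM in the SAP30-KO and SIN3A+SIN3B-DKO libraries and between 51.4 and 115.1 TPM in parental and MLL1-KO libraries, while TGFBI lies above 137 TPM only in the MLL1-KO libraries.

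Differences were tested on log2(TPM + 0.5) with limma across 13540 genes, and a gene was called changed at a Benjamini-Hochberg adjusted p under 0.05 and at least 1.5-fold. The added 0.5 makes a fold change of a low gene look smaller than the ratio of its TPM. All 6 lines share the same 2 parental libraries as their reference. The log2 change of ENG on this scale was -5.11 in SAP30-KO1, -4.45 in SAP30-KO2, -3.57 in SIN3A+SIN3B-DKO1 and -6.00 in SIN3A+SIN3B-DKO2. These values are given without intervals, since the genes were chosen for this fall. In SIN3A+SIN3B-DKO2 the change ranged from -6.70 to -5.44 with other processing.

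The ligand genes TGFB1 and TGFB2 took different courses. TGFB1, at 189.3 and 184.1 TPM in parental cells, was called lower only in SIN3A+SIN3B-DKO2 (115.5 and 110.7 TPM, log2 change -0.72, SE 0.04, limma adjusted p = 1.7e-07). In SAP30-KO1, SAP30-KO2 and SIN3A+SIN3B-DKO1 its means were 133.1 ± 6.53, 140.1 ± 1.68 and 130.5 ± 2.16 TPM (SD, n = 2), below both parental libraries and within 1.5-fold of their mean. With the median change of neighbouring genes subtracted, TGFB1 was called lower in these 3 lines too, at -0.63, -0.59 and -0.61 on the log2 scale. In the MLL1-KO lines it stood on either side of parental cells, with 148.6 and 144.5 TPM in MLL1-KO1 and 227.4 and 230.8 TPM in MLL1-KO2.

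TGFB2, at 71.0 and 66.4 TPM in parental cells, stood far lower in the MLL1-KO lines. MLL1-KO1 had 17.0 and 17.5 TPM (3.99-fold below) and MLL1-KO2 had 13.1 and 12.8 TPM (5.31-fold below). The 8 libraries of the other lines ranged from 51.3 to 64.4 TPM, and none of those lines was called. The log2 change of TGFB2 was -0.35 in SAP30-KO1 (limma adjusted p = 0.00012) and -0.40 in SAP30-KO2 (limma adjusted p = 4.5e-05), under the 1.5-fold minimum.

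LTBP1, which tethers latent TGF-β to the matrix, was higher than both parental libraries (27.5 and 27.8 TPM) in all 12 libraries of the edited lines. It rose in SAP30-KO1 to 42.9 ± 1.71 TPM (log2 change 0.63, SE 0.05, limma adjusted p = 1.1e-06), in SAP30-KO2 to 48.2 ± 2.14 TPM (0.79, SE 0.05, limma adjusted p = 2e-07) and in SIN3A+SIN3B-DKO1 to 42.8 ± 0.687 TPM (0.62, SE 0.05, limma adjusted p = 1.2e-06). SIN3A+SIN3B-DKO2, with 31.8 and 31.5 TPM, stayed under the 1.5-fold minimum. The MLL1-KO lines had the highest levels, with 60.3 and 61.0 TPM in MLL1-KO1 and 91.4 and 96.4 TPM in MLL1-KO2, or 2.20-fold and 3.40-fold above parental cells. In SAP30-KO1 the change of LTBP1 fell to 0.51 and lost its call when the median change of neighbouring genes was subtracted.

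Among the receptors, the kinase receptors TGFBR1 and TGFBR2 stayed within 1.5-fold of parental cells in every line. TGFBR2 had the highest level of the 10 genes in every condition, with a mean of 232.1 ± 2.42 TPM in parental cells and a range from 219.3 to 292.6 TPM over all libraries. TGFBR1 ranged from 42.6 to 57.3 TPM, and neither gene was called in any SAP30-KO or SIN3 double KO line. For TGFBR1 the intervals of the log2 change were 0.16 to 0.38 in SAP30-KO1, 0.15 to 0.37 in SAP30-KO2, -0.06 to 0.17 in SIN3A+SIN3B-DKO1 and -0.09 to 0.13 in SIN3A+SIN3B-DKO2.

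The coreceptor TGFBR3 was lower than parental cells (24.6 and 22.2 TPM) in all 12 libraries of the edited lines. It fell in SIN3A+SIN3B-DKO1 to 11.3 and 11.9 TPM (log2 change -0.99, SE 0.08, limma adjusted p = 1.6e-06) and in SIN3A+SIN3B-DKO2 to 7.51 and 7.97 TPM (-1.54, SE 0.08, limma adjusted p = 1e-07). The SAP30-KO lines had 15.9 ± 0.00925 and 15.9 ± 0.733 TPM, with a log2 change of -0.54 in each and an adjusted p that passed, but under the 1.5-fold minimum. Without the second parental library these changes were -0.61 and -0.62 and passed both criteria, as did that of SAP30-KO2 without its replicate 1, at -0.59. With the median change of neighbouring genes subtracted they were -0.79 and -0.69 and also passed both. In MLL1-KO1 TGFBR3 had 6.28 and 6.13 TPM and in MLL1-KO2 8.79 and 7.98 TPM.

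ACVRL1, the type I receptor that endothelial cells pair with endoglin, was at the limit of detection. It had 8 reads in all 14 libraries together, and 9 libraries were at 0. A count of 0 allows up to 3 reads, which is between 0.0802 and 0.101 TPM in these libraries, and the highest library, with 3 reads, had 0.0973 TPM. ACVRL1 was left out of the tests for its low level, and no difference was detectable at this depth. The limit of 3 reads covers counting error only.

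SMAD3, which carries the signal from TGFBR1 to the nucleus, had 72.2 and 70.7 TPM in parental cells. It was lower in the MLL1-KO lines, with 41.9 and 41.0 TPM in MLL1-KO1 (1.72-fold below) and 29.4 TPM in each MLL1-KO2 library (2.43-fold below). The SAP30-KO and SIN3 double KO libraries ranged from 59.5 to 65.8 TPM, all below both parental libraries and all within 1.5-fold of them.

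**Figure D2:**
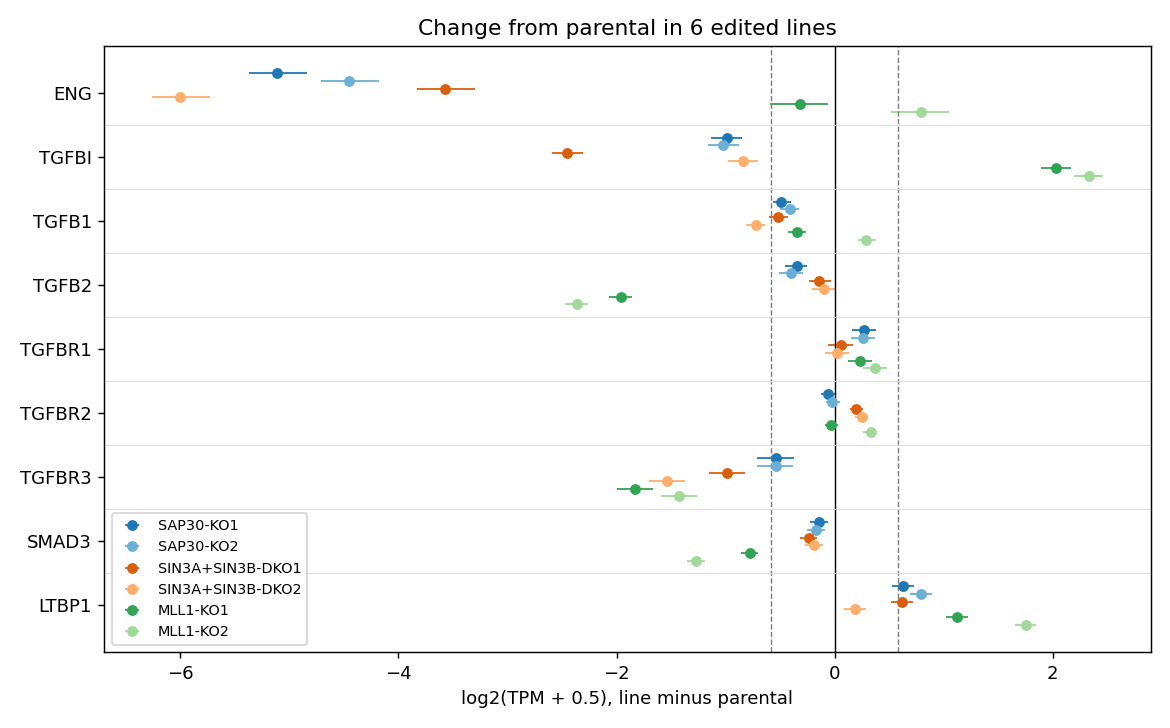
Change of 9 genes from parental cells in each edited line, as the difference in log2(TPM + 0.5) with its 95% interval, with dashed lines at 1.5-fold. ENG is the farthest to the left in the SAP30-KO and SIN3A+SIN3B-DKO lines (-3.57 to -6.00), and TGFBI (2.03 and 2.33) and TGFB2 (-1.96 and -2.36) are the farthest from 0 in the MLL1-KO lines. The intervals of ENG, of TGFBI and of every gene in the MLL1-KO lines are drawn as a description and not as a test.

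Of the 7 genes that could be tested against parental cells, LTBP1 was called higher in SAP30-KO1 and in SAP30-KO2. Over all genes tested, 7.80% were called higher and 7.86% lower in SAP30-KO1, and 7.44% higher and 8.12% lower in SAP30-KO2. In SIN3A+SIN3B-DKO1, 1 of the 7 was called higher (LTBP1) and 1 lower (TGFBR3), beside 7.76% and 8.66% of all genes. In SIN3A+SIN3B-DKO2, 2 were called lower (TGFB1 and TGFBR3), beside 7.56% of all genes, and 6% of all genes were called higher. The median log2 change of the 7 genes was -0.14, -0.17, -0.14 and -0.10 in the 4 lines, and that of all genes tested was between 0.00 and 0.03. Among all genes, MLL1-KO1 had 16.3% called lower with 6.89% called higher. The shares for MLL1-KO2 were 14.9% lower with 10.2% higher. Nothing is read from these shares for the 10 genes.

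Counted by library, 7 of the 9 detected genes were below both parental libraries in all 4 SAP30-KO libraries and 2 were above. Over all genes tested, 29.8% were below and 34.4% above. In the SIN3 double KO libraries 6 were below and 2 above, beside 28.8% and 30.5%. In the MLL1-KO libraries 3 were below (TGFB2, TGFBR3 and SMAD3) and 3 above (TGFBI, TGFBR1 and LTBP1), beside 37.7% and 23.6%. These counts include ENG and TGFBI, by which the genes were chosen.

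The SAP30-KO lines were next compared with the SIN3 double KO lines directly, 4 libraries against 4, which asks whether losing the subunit and losing the scaffolds left these genes at different levels. TGFBR3 was higher in the SAP30-KO lines by 0.72 on the log2 scale (95% interval 0.60 to 0.84, limma adjusted p = 1.3e-06), and TGFBI by 0.64 (0.54 to 0.74, limma adjusted p = 8.7e-07). These intervals and p-values rest on the spread between libraries of a line and do not measure that between lines of a genotype. TGFBR3 itself had 11.6 ± 0.439 and 7.74 ± 0.327 TPM in the double KO lines. Of the 9 genes these 2 were called higher, beside 4.22% of all genes called higher and 3.25% lower. TGFBI is among the genes by which the set was chosen, so nothing is read from its p-value or from this count. Both calls were lost, at 0.48 for TGFBR3 and 0.56 for TGFBI, when the median change of neighbouring genes was subtracted. For TGFBI the mean over the double KO lines joins levels as different as 5.78 ± 0.0792 and 18.8 ± 1.49 TPM, and the latter lies above both SAP30-KO means.

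For ENG the same comparison gave a difference of 0.00 (95% interval -0.18 to 0.19, limma adjusted p = 0.98). This average does not describe the double KO lines, which stood on either side of the SAP30-KO lines. The remaining 6 genes were not called. Their differences lay between -0.27 (TGFBR2, interval -0.31 to -0.22) and 0.30 (LTBP1, interval 0.23 to 0.37).

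Lines of the same genotype were then compared with each other. Between SIN3A+SIN3B-DKO1 and SIN3A+SIN3B-DKO2, ENG was 9.34-fold higher in the former (log2 difference 2.43, SE 0.12, limma adjusted p = 7.6e-07) and TGFBI 3.25-fold higher in the latter (-1.61, SE 0.06, limma adjusted p = 9.8e-08). These genes therefore differed in opposite directions, and they were 2 of 9 called, beside 2.23% of all genes in either direction. ENG and TGFBI are the genes by which the set was chosen. Nothing is therefore read from their p-values or from such counts between lines of a genotype, here and below. TGFBR3, at 0.55, was just under the 1.5-fold minimum. It passed, at 0.59, without SIN3A+SIN3B-DKO1 replicate 1 and without SIN3A+SIN3B-DKO2 replicate 2.

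Between MLL1-KO1 and MLL1-KO2, 3 of the 9 genes were called, all lower in MLL1-KO1, beside 10.4% of all genes in either direction. ENG was 2.17-fold higher in MLL1-KO2 (log2 difference -1.11, SE 0.12, limma adjusted p = 3.2e-05), TGFB1 1.56-fold (-0.64, SE 0.04, limma adjusted p = 4.6e-07) and LTBP1 1.55-fold (-0.63, SE 0.05, limma adjusted p = 1.9e-06). TGFBI was not called between these lines (-0.30, 95% interval -0.44 to -0.16). The call of LTBP1 was lost with median ratio scaling, at -0.58, and that of TGFB1 at -0.49 when the median change of neighbouring genes was subtracted.

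The SAP30-KO lines were close to each other. Only 0.148% of all genes were called between them, and of the 9 genes ENG was called (1.77-fold higher in SAP30-KO2, log2 difference -0.66, SE 0.12, limma adjusted p = 0.045). That call was near the threshold. It was lost on leaving out any parental, SAP30-KO, SIN3A+SIN3B-DKO1 or MLL1-KO library, while the difference stayed between -0.54 and -0.82 under all alternatives run. The other 8 genes differed by at most 0.16 on the log2 scale.

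The rest of the pathway was described from 130 further genes in 6 lists, of which 98 were tested. Some genes are on more than 1 list, so the tested genes of the lists add up to 109. In SAP30-KO1 14 of the 98 were called lower and 12 higher, in SAP30-KO2 13 and 13, in SIN3A+SIN3B-DKO1 15 and 14, and in SIN3A+SIN3B-DKO2 16 and 8. MLL1-KO1 had 18 called lower with 25 called higher, and MLL1-KO2 had 18 with 30. As shares of the 98 genes, the lower calls made up 14.3%, 13.3%, 15.3%, 16.3%, 18.4% and 18.4% in the 6 lines, beside 7.86%, 8.12%, 8.66%, 7.56%, 16.3% and 14.9% of all genes tested. The higher calls made up 12.2%, 13.3%, 14.3%, 8.16%, 25.5% and 30.6%, beside 7.80%, 7.44%, 7.76%, 6%, 6.89% and 10.2%. The lists were chosen with earlier results of these data known, so these shares do not test whether the pathway changed more than other genes. The median log2 change of the 98 genes was between -0.06 and 0.10 in the 6 lines. Called lower in all 6 lines were MMP2, BMPR1B, SMAD9, COL4A1, ACTA2 and ID3, and called higher in all 6 lines were SMAD7, VEGFA and ARRB2. COL4A1 and VEGFA are named after their values were seen. The share of all genes called in all 6 lines was not counted, and the lines share their parental libraries. Nothing is therefore read from the number of these genes. MMP2 and SMAD9 would not have passed the filter of at least 1 TPM in 2 libraries without the parental libraries, so they could hardly be called higher.

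The lists were then read by the genes called in both lines of a genotype. Over all genes tested, 6.79% were lower and 6.17% higher in both SAP30-KO lines. The shares were 5.99% and 4.7% for both SIN3 double KO lines and 11.4% and 5% for both MLL1-KO lines. For the 98 pathway genes together they were 13.3% lower and 11.2% higher (SAP30-KO), 12.2% and 7.14% (SIN3 double KO), and 15.3% and 22.4% (MLL1-KO). The same limit on how the lists were chosen holds for these shares and for the counts of each list below.

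Of 6 tested ligand genes other than the members, 1 fell and 2 rose in both SAP30-KO lines, 1 rose in both SIN3 double KO lines, and 3 fell in both MLL1-KO lines. INHBB, which encodes the βB chain of activins and inhibins, rose from 72.3 ± 2.26 TPM in parental cells to 196.3 ± 3.01 in SAP30-KO1, 219.9 ± 5.23 in SAP30-KO2, 162.0 ± 4.75 in SIN3A+SIN3B-DKO1 and 169.3 ± 7.93 in SIN3A+SIN3B-DKO2, whereas MLL1-KO1, with 40.2 ± 0.91 TPM, and MLL1-KO2, with 8.63 ± 0.338 TPM, were lower. All 6 changes were called. GDF15, a stress-induced ligand, fell 41.8-fold and 54.2-fold in MLL1-KO1 and MLL1-KO2, from 45.3 ± 4.06 TPM, and these folds rest on 7 to 14 reads per MLL1-KO library. It also fell 2.99-fold in SIN3A+SIN3B-DKO2. TGFB3, the other TGF-β ligand, was low in parental cells (1.86 ± 0.535 TPM) and rose in both SAP30-KO lines, which had 4.67 ± 0.555 and 3.45 ± 0.167 TPM, and in MLL1-KO1, which had 5.24 ± 0.495 TPM. GDF1, with 1.73 ± 0.163 TPM in parental cells, fell in both SAP30-KO lines, both MLL1-KO lines and SIN3A+SIN3B-DKO2, although its reads cannot be told from those of CERS1, with which it shares a transcript.

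Of 18 tested genes that hold ligands latent, trap them or release them, 4 fell and 1 rose in both SAP30-KO lines, 3 fell in both SIN3 double KO lines, and 3 fell and 6 rose in both MLL1-KO lines. FST, which encodes the activin trap follistatin, fell 1.80-fold and 1.78-fold in the SAP30-KO lines and 4.71-fold and 8.77-fold in the MLL1-KO lines, from 133.1 ± 3.51 TPM. FSTL3, a related trap, fell 2.48-fold and 2.89-fold in the SAP30-KO lines and 2.58-fold and 2.15-fold in the SIN3 double KO lines. ITGB3, an integrin chain, rose 2.15-fold and 2.30-fold in the SAP30-KO lines and 2.85-fold in SIN3A+SIN3B-DKO1. It was not called in SIN3A+SIN3B-DKO2 (7.56 ± 0.529 TPM against 5.07 ± 0.298), and it fell 5.58-fold and 5.01-fold in the MLL1-KO lines. ITGB8, the chain of an integrin that releases active TGF-β, fell in both SAP30-KO and both SIN3 double KO lines, from 1.68 ± 0.23 TPM. MMP2, a matrix protease, had 1.80 ± 0.241 TPM in parental cells and was listed at 0 in SIN3A+SIN3B-DKO2 and MLL1-KO2. No library of an edited line had more than 16 reads of it, and it was tested only because parental cells passed the filter.

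Of 13 other receptors and coreceptors tested, 1 fell in both SAP30-KO lines, 1 fell in both SIN3 double KO lines, and 1 fell and 1 rose in both MLL1-KO lines. The BMP receptor gene BMPR1B fell in every line, from 3.59 ± 0.218 TPM to between 0.68 ± 0.235 (SAP30-KO1) and 1.29 ± 0.0725 (MLL1-KO1). NRP2, a neuropilin, rose 1.82-fold in MLL1-KO1 and 2.69-fold in MLL1-KO2.

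Of 26 tested SMADs and SMAD regulators, 2 fell and 3 rose in both SAP30-KO lines, 2 fell and 1 rose in both SIN3 double KO lines, and 1 fell and 4 rose in both MLL1-KO lines. SMAD7, an inhibitory SMAD that TGF-β itself induces, rose in every line from its parental level of 3.36 ± 0.93 TPM. Its mean was 10.6 ± 1.71 TPM in SAP30-KO1, 12.3 ± 0.25 in SAP30-KO2, 5.82 ± 0.225 in SIN3A+SIN3B-DKO1 and 6.89 ± 1.11 in SIN3A+SIN3B-DKO2. The MLL1-KO lines were highest, with 20.7 ± 0.287 and 25.6 ± 0.319 TPM. PMEPA1, another feedback inhibitor, rose 1.89-fold and 2.02-fold in the SAP30-KO lines and 3.32-fold and 3.12-fold in the MLL1-KO lines, and it was not called in the SIN3 double KO lines (21.1 ± 1.93 and 24.0 ± 2.94 TPM against 26.6 ± 0.0619). SMAD6, the inhibitory SMAD of BMP signalling, went opposite ways, with a rise of 1.59-fold and 1.69-fold in the SAP30-KO lines and a fall of 1.76-fold and 1.86-fold in the SIN3 double KO lines. It also fell 2.28-fold in MLL1-KO2 and was not called in MLL1-KO1 (15.1 ± 0.669 TPM against 16.5 ± 0.591). Compared directly, SMAD6 (1.52), PMEPA1 (1.19) and SMAD7 (0.80) were higher in the SAP30-KO than in the SIN3 double KO lines on the log2 scale, with limma adjusted p-values of 7.8e-09, 6.5e-08 and 0.00014. Here too the p-values do not measure the spread between lines of a genotype.

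Of 34 tested target genes, 6 fell and 6 rose in both SAP30-KO lines, 7 fell and 5 rose in both SIN3 double KO lines, and 8 fell and 13 rose in both MLL1-KO lines. The median log2 change of the targets in the MLL1-KO lines was 0.46 and 0.31, beside -0.09 and -0.04 for all genes. This difference is a description, since the list was chosen with earlier results of these data known. ID3, a target of BMP signalling, fell in every line, from 5.97 ± 0.291 TPM to between 0.232 ± 0.00962 in MLL1-KO2 and 0.875 ± 0.424 in SIN3A+SIN3B-DKO2. These lower levels rest on 2 to 12 reads per library. ACTA2, smooth muscle actin, also fell in every line, from 6.85 ± 0.303 TPM to between 0.702 ± 0.248 and 2.35 ± 0.31. TAGLN, another smooth muscle gene, fell 4.42-fold and 5.65-fold in the SAP30-KO lines and 6.04-fold and 2.09-fold in the MLL1-KO lines. It was not called in the SIN3 double KO lines (85.2 ± 1.95 and 63.4 ± 3.01 TPM against 61.4 ± 1.4). NEDD9, a docking protein, fell 7.86-fold and 6.92-fold in the MLL1-KO lines and 1.57-fold and 1.68-fold in the SIN3 double KO lines.

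Of 12 tested genes for endoglin's ligands, partners and regulators, 1 fell and 1 rose in both SAP30-KO lines, 1 fell and 1 rose in both SIN3 double KO lines, and 3 rose in both MLL1-KO lines. ARRB2, a β-arrestin that binds endoglin, rose in every line, from 22.6 ± 1.7 TPM to between 46.2 ± 0.156 and 70.0 ± 2.16. ID1, a target of the endoglin and ACVRL1 branch in endothelial cells, fell from 47.7 ± 3.48 TPM in all SAP30-KO and SIN3 double KO lines. SAP30-KO1 and SAP30-KO2 had 25.5 ± 1.58 and 24.6 ± 0.967 TPM, and the SIN3 double KO lines had 24.7 ± 0.552 and 24.7 ± 0.391 TPM. MMP14, the membrane protease that sheds endoglin, rose 2.23-fold and 3.44-fold in the MLL1-KO lines, from 421.0 ± 5.29 TPM. ITGA5, the fibronectin receptor chain, rose 2.17-fold and 2.63-fold there, and it was also called higher in SAP30-KO1 (1.51-fold) and SIN3A+SIN3B-DKO1 (1.66-fold).

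**Figure D3:**
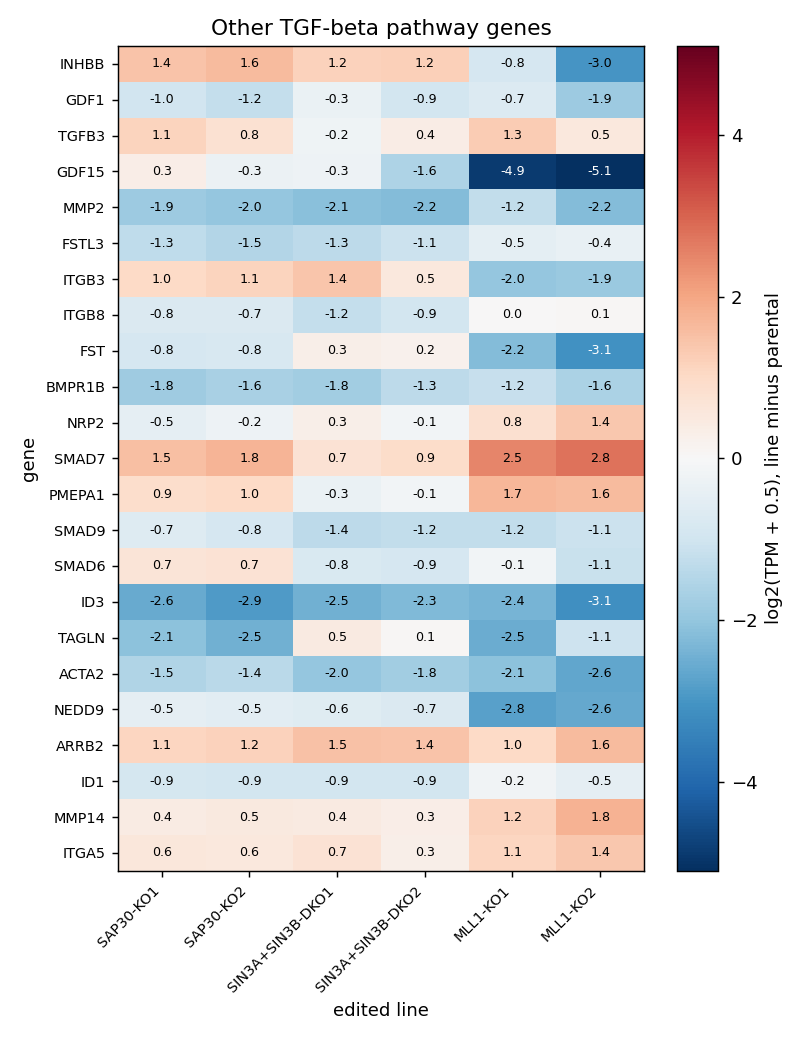
Difference of each edited line from parental cells in log2(TPM + 0.5) for the 23 pathway genes named from the 6 lists, with the value in each cell. ID3, ACTA2, MMP2, BMPR1B and SMAD9 are lower and SMAD7 and ARRB2 higher in all 6 lines, and the lowest values are those of GDF15 in the MLL1-KO lines. MMP2 and SMAD9 would not have been tested without the parental libraries.

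The genes whose pattern over the 7 conditions was most like that of ENG were sought among 3609 tested genes that spanned at least 1 on the log2 scale. They were OSBPL5 (Pearson r = 0.983), GCHFR (0.980), LINC00239 (0.975), F2RL3 (0.966) and CUEDC1 (0.959), each over 7 condition means that share the parental libraries. F2RL3, which encodes a thrombin receptor, went from 2.74 TPM in parental cells to 0.0888 TPM in SIN3A+SIN3B-DKO2 and 3.40 TPM in MLL1-KO2. Most like TGFBI were KLHL42 (0.977), THBS1 (0.976), PODXL (0.973), C17orf51 (0.972) and AFAP1L2 (0.970). THBS1, an activator of latent TGF-β, stood at 375.8 TPM in parental cells, between 243.8 and 322.3 TPM in the SAP30-KO and SIN3 double KO lines, and at 940.5 and 1101.4 TPM in the MLL1-KO lines. Over the same 7 means ENG and TGFBI had a Pearson r of 0.77 with each other. With ENG the other members ranged from -0.66 (TGFB2) to 0.87 (TGFB1). With TGFBI they ranged from -0.89 (TGFB2) and -0.81 (SMAD3) to 0.64 (LTBP1) and 0.68 (TGFB1). These values include the lines by which the genes were chosen and were not tested.

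Because endoglin is an endothelial marker, the levels of 10 other endothelial markers were examined beside it. CDH5, CLDN5 and EMCN had at most 1 read in any library, and VWF and TEK were at most 0.252 and 0.12 TPM. The summed level of the 10 markers was 318.2 to 331.6 TPM in parental libraries, 168.7 to 179.9 in SAP30-KO libraries, 225.3 to 278.9 in SIN3 double KO libraries and 104.8 to 156.2 in MLL1-KO libraries. ESAM had 301.7 ± 7.61 TPM in parental cells and 137.8 ± 0.798 and 142.7 ± 0.159 in the SAP30-KO lines, 219.1 ± 9.01 and 187.1 ± 10.3 in the SIN3 double KO lines, and 79.4 ± 0.606 and 69.5 ± 4.81 in the MLL1-KO lines. ROBO4 was higher than its parental mean of 17.4 ± 2.45 TPM in every line, at 25.5 ± 0.415, 31.5 ± 1.54, 47.3 ± 0.785, 41.3 ± 1.4, 22.3 ± 1.44 and 71.7 ± 0.232 TPM in the same order. PECAM1 had 1.74 ± 0.167 TPM in parental cells and 3.50 ± 0.00585, 3.33 ± 0.91, 2.44 ± 0.388, 1.62 ± 0.1, 2.87 ± 0.0284 and 3.17 ± 0.109 in the same order of lines. KDR went from 3.1 TPM in parental cells to 2.1, 2.33, 3.05, 2.71, 0.529 and 6.33 TPM. TIE1 went from 0.85 TPM, on 22 to 26 reads, to 0.0336, 0, 0.442, 0.347, 0.077 and 1.88 TPM. In parental cells most of the summed level was that of ESAM. In parental cells 4 of the 10 markers reached 1 TPM. Fibroblast markers summed to between 6.35 and 15.3 TPM, and of the leukocyte markers CD68 alone was above 10 TPM. The sums differed between conditions, also between lines of a genotype. Those of the endothelial markers were 104.8 to 105.6 TPM in MLL1-KO1 and 149.2 to 156.2 TPM in MLL1-KO2. The part of these sums in the levels of ENG was not tested. In bulk RNA, fewer cells with a transcript and less transcript per cell cannot be told apart.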

How the data were processed

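RNA-Seq of 14 libraries was analysed. The authors extracted RNA, prepared mRNA libraries with the KAPA kit and sequenced them on an Illumina NextSeq. Processing notes of the submitters name FastQC 0.11.2, TopHat, featureCounts and hg19, and the annotation is not given in the sources used here. The deposited table was named RPKM by the authors, but each library adds up to 1000000, so its values are TPM. The tests were planned for RPKM, and the planned log2 test suits TPM too. Because TPM have a fixed total, differences in total RNA cannot be seen. Whole reads were recovered for 18519 of 18519 genes above 0, to within 0.02 read, giving 18415036 to 23162682 reads per library. Replicates of each condition differed by more than counting noise (chi-square per degree of freedom from 1.5 to 8.37).

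Genes with at least 1 TPM in at least 2 libraries were fitted as 7 group means with limma 3.58.1 in R 4.3.3 on log2(TPM + 0.5), with a variance trend. The procedure was also run on simulated data with the same spread in every condition, so that run does not cover the unequal spread of the real replicates. The named genes were the 10 members, the targeted genes, up to 3 genes per list and genotype with the largest mean change called in both lines, and the 5 genes most like ENG and TGFBI. Members and lists were chosen with earlier results of these data known. Alternatives were other pseudocounts, filters, scalings and fold minimums, a replicate block, left-out libraries, removal of the median of 51 neighbouring genes, and a fit to recovered reads. Promoters came from RefSeq and positions from GENCODE 44 on GRCh37. Python 3.11.15 was used.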

Additional observations from a re-analysis of the deposited data

Results flagged for a closer look

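These differences between edited lines or genotypes were past the threshold in a direct limma test. ENG and TGFBI are the genes by which the set was chosen, so passing the threshold is only a description for them. The test measures the spread between libraries and not that between lines of a genotype. TGFBI differed by 0.64 and TGFBR3 by 0.72 on the log2 scale between the SAP30-KO and the SIN3A+SIN3B-DKO lines, higher in the former. Both calls were lost when the median change of neighbouring genes was subtracted. The TGFBI mean of SIN3A+SIN3B-DKO2, 18.8 TPM, lay above those of SAP30-KO1 and SAP30-KO2, 16.8 and 16.4 TPM. ENG differed by -0.66 between SAP30-KO1 and SAP30-KO2, by 2.43 between SIN3A+SIN3B-DKO1 and SIN3A+SIN3B-DKO2 and by -1.11 between MLL1-KO1 and MLL1-KO2. TGFBI differed by -1.61 between SIN3A+SIN3B-DKO1 and SIN3A+SIN3B-DKO2. TGFB1 differed by -0.64 and LTBP1 by -0.63 between MLL1-KO1 and MLL1-KO2. TGFBI was higher than parental cells in all 4 MLL1-KO libraries and lower in the 8 libraries of the other lines, with a mean difference of 3.50 between these sets, and this difference was not tested because TGFBI was chosen for it.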

How the results depend on the processing

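With 2 libraries per condition, the call of a gene near 1.5-fold could turn on 1 library. With a 2-fold minimum the members called against parental cells went to 0 in SAP30-KO1, SAP30-KO2 and SIN3A+SIN3B-DKO1 and to 1 in SIN3A+SIN3B-DKO2. They went to 0 between SAP30-KO and SIN3A+SIN3B-DKO and between SAP30-KO1 and SAP30-KO2, and to 1 between MLL1-KO1 and MLL1-KO2. With no fold minimum they were 6, 6, 6 and 5 in the same 4 lines, 7 between SAP30-KO and SIN3A+SIN3B-DKO, 5 between the SIN3A+SIN3B-DKO lines and 8 between the MLL1-KO lines. Of the 98 other pathway genes, 60, 61, 64, 57, 72 and 78 were called in the 6 lines with no fold minimum, and 12, 13, 15 and 12 in the SAP30-KO and SIN3A+SIN3B-DKO lines with a 2-fold minimum. Both shifts follow from the threshold. The shares of all genes called at these thresholds are not given here, so nothing is read about the pathway from these counts. With the neighbouring median removed, 2, 3 and 0 members were called in SAP30-KO1, in SAP30-KO2 and between SAP30-KO and SIN3A+SIN3B-DKO, and the cause was not tested. The call of ENG between SAP30-KO1 and SAP30-KO2 (1 member) went to 0 with a pseudocount of 0.1 or 1, with no filter, with only the libraries compared, with the neighbouring median removed and with a fit to recovered reads.

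Leaving out each library in turn gave 1 to 2 members called in SAP30-KO1 and in SAP30-KO2, 0 to 1 between them, 2 to 3 between the SIN3A+SIN3B-DKO lines, 2 in each of those lines and between SAP30-KO and SIN3A+SIN3B-DKO, and 3 between the MLL1-KO lines. Same-numbered libraries were not paired, since their deviations correlated by a mean of 0.015 over 21 pairs of groups (-0.073 to 0.082). With the number as a replicate block, ENG lost its call between SAP30-KO1 and SAP30-KO2 (0 members), and no other count of members changed. Quantile normalization moved the median of all genes by 0.13 in MLL1-KO1 and the share of lower calls from 70.3% to 51.6% there, and from 59.3% to 48.4% in MLL1-KO2. No called member changed direction under any alternative run, and 29 of 1600 single values that were not called changed sign. ENG in SIN3A+SIN3B-DKO2, from 11 and 18 reads, and ACVRL1 are limited by depth, and the log2 change of the former ranged from -6.70 to -5.44 with the alternatives.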
